A study of Caenorhabditis elegans with 2 samples.

Results

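The heterochronic genes of Caenorhabditis elegans, which time the cell fates of successive larval stages, were examined for occupancy by ISW-1. The 10 members were taken from a given list of names, namely the microRNA genes lin-4 and let-7 and the protein-coding genes lin-14, lin-28, lin-41, lin-42, lin-46, lin-66, nhl-2 and hbl-1, and they stand among 46890 annotated genes, of which 19973 are protein-coding and 261 are microRNA genes. ISW-1 was located by ChIP-seq in L1 larvae of strain OP181, taken whole at 6 hours after bleaching and starvation had synchronised them. These worms carry the unc-119(ed3) mutation and the integrated transgene wgIs181, which holds isw-1 joined to a TY1, EGFP and 3xFLAG tag together with unc-119(+). Chromatin was precipitated through the GFP tag. All samples share this 1 genotype and 1 condition, in 2 biological replicates. Peaks and their ranks can thus be compared between replicates and between genes but not between treatments. The signal therefore belongs to the tagged protein, summed over all tissues of the larva.

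ISW-1 is the ATPase of ISWI-type remodelling complexes, which slide and space nucleosomes. In the heterochronic pathway, LIN-14 and then LIN-28 and HBL-1 hold cells in early larval programmes until microRNAs lower them, first lin-4 and later let-7 and its relatives, after which LIN-41 falls and adult fates follow. LIN-46 acts downstream of LIN-28, LIN-42 is the worm relative of the circadian protein Period, and NHL-2 is a cofactor of the microRNA machinery.

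In the conservative list of peaks found from both replicates, 8 of the 10 members had a summit between 2000 bp upstream of their outermost annotated start and their end, with 10 summits in all. They were let-7, lin-14, lin-28, lin-41, lin-42, lin-46, lin-66 and nhl-2, while lin-4 and hbl-1 had none. The same 8 members had a summit in the series' other thresholded list and in the separate lists of replicate 1 and replicate 2. These lists are not independent, since both series lists draw on both replicates. Among the protein-coding members, 7 of 8 had a summit, beside 13.9% of all protein-coding genes. That background share was 14.1% in the other thresholded list, 13.5% in replicate 1 and 11.9% in replicate 2. Windows of the protein-coding members ran from 3876 bp at lin-46 to 22312 bp at lin-14. All but that of lin-46 exceeded the median of 4027 bp over all protein-coding genes. Of protein-coding genes with windows in that range, 16.5% had a summit, a share not matched to the longest members. Of the microRNA members 1 of 2 had a summit, beside 11.9% of microRNA genes. Their annotated starts are not alike, since that of let-7 is its longest primary transcript and that of lin-4 its precursor hairpin. Measured from the let-7 hairpin, the let-7 summit lay 2895 bp upstream, beyond the 2000 bp limit.

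Summits lay both upstream of and inside the members. A summit upstream of the start was found at 6 members, let-7, lin-28, lin-41, lin-46, lin-66 and nhl-2, of which 5 are protein-coding (background 12.1% of protein-coding genes). A summit inside the gene was found at 3 members, lin-14, lin-28 and lin-42 (background 2.18%), each time in an intron. That background is over protein-coding genes of all lengths. The genes lin-14 and lin-42 span 20312 and 19124 bp, which gives more room for a summit, and no share for genes of similar length was computed. The members were chosen with earlier results of these data known, so these counts carry no test. They also depend on the upstream limit. Within 500 bp of the start, 1 member, lin-66, had an upstream summit (7.77% of protein-coding genes), and 4 members, lin-14, lin-28, lin-42 and lin-66, had a summit in the window (9.7%).

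**Figure D1:**
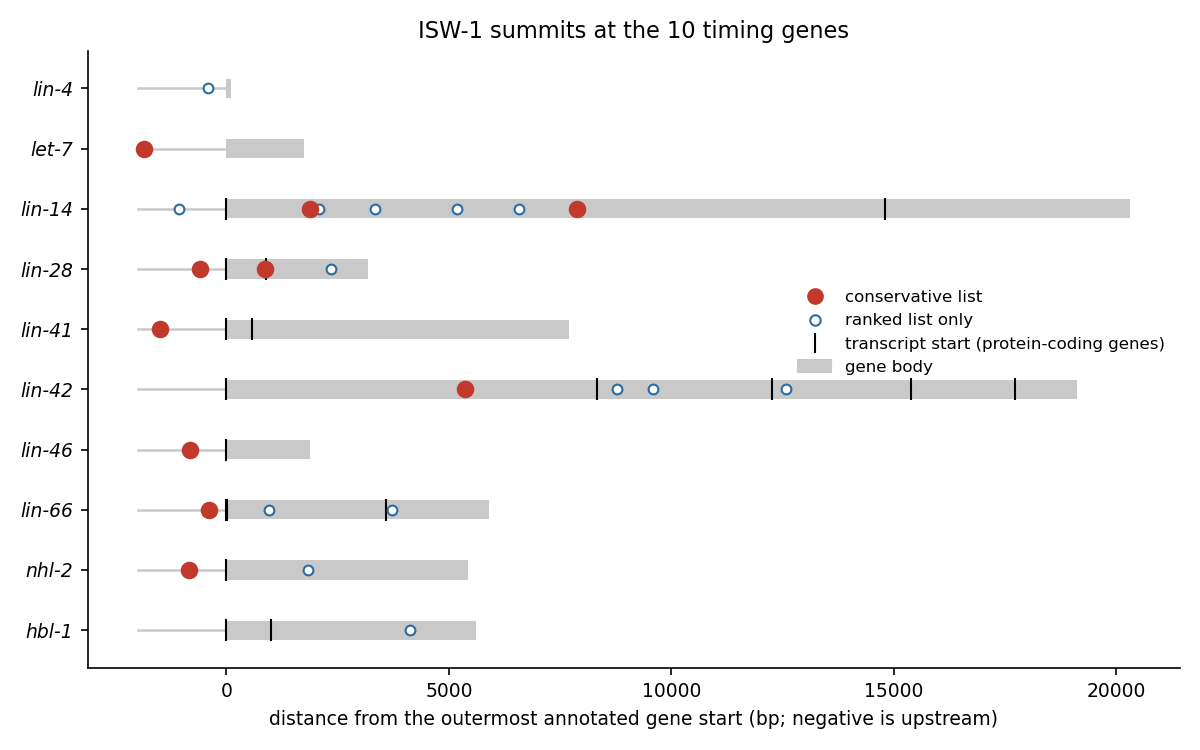
Positions of ISW-1 summits (horizontal axis, bp from the outermost annotated gene start, negative upstream) at each of the 10 genes. Filled points are summits of the conservative list, open points are weaker peaks found only in its ranked list, grey bars are gene bodies and ticks are transcript starts; the filled points of let-7, lin-41, lin-46, lin-66 and nhl-2 lie upstream, those of lin-14 and lin-42 lie inside, and lin-28 has 1 of each.

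The microRNA members are shown first by the RNAs they make, with the seed at bases 2 to 8 in capitals, because the seed sets which messages they bind. The related microRNAs mir-48, mir-84 and mir-241 share the seed of let-7, and mir-237 shares that of lin-4.
lin-4: uCCCUGAGaccucaaguguga
mir-237: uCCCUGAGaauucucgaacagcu
let-7: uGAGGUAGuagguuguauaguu
mir-48: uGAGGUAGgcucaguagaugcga
mir-84: uGAGGUAGuauguaauauuguaga
mir-241: uGAGGUAGgugcgagaaauga
Complements of the whole 7-base seed were counted in the longest annotated 3′ UTR of each protein-coding member. The 3′ UTR of lin-14 held 3 for lin-4 and 4 for let-7. That of lin-28 held 1 for each, and that of hbl-1 held 4 for let-7 and 0 for lin-4. The 3′ UTRs of lin-41, lin-42, lin-46, lin-66 and nhl-2 held 0 of either, and imperfect pairing of the kind known between let-7 and lin-41 is not counted this way. Over 16794 protein-coding genes with a 3′ UTR, 0.220% held a lin-4 match and 0.875% a let-7 match. Member 3′ UTRs run from 153 to 1628 bp against a median of 131 bp, so longer ones offer more room for a match.

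At let-7, whose RNA lowers lin-41 and hbl-1 late in larval life, the peak was at X:14747071-14747240 (ce11), 1845 bp upstream of the longest primary transcript and 2895 bp upstream of the precursor hairpin. Its signal, the value the authors deposited with each peak, was 242.8 in the conservative list, 164.5 in replicate 1 and 77.8 in replicate 2. It ranked 805 of 2143, 739 of 2090 and 928 of 1756 in these lists, which puts it above the median in the conservative list and replicate 1 and below it in replicate 2. The summits of both replicates were 1 bp apart. The summit lay nearer to another gene, 137 bp upstream of the divergent C05G5.2, than to let-7, and these peaks cannot tell which of the pair it belongs to. The 201 bp centred on this summit are shown on the strand of let-7 and hold none of the 4 short sequences described further on, so no base is in capitals.
let-7: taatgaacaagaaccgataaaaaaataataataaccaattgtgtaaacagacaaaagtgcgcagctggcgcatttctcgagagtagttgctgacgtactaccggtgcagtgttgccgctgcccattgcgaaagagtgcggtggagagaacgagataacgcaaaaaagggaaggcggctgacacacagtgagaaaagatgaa
The gene lin-4, which lowers lin-14 at the end of the first larval stage, lies in an intron of F59G1.4, itself without a conservative summit. No thresholded list placed a summit in its 2094 bp window. The ranked list behind the conservative one held a single peak there, 426 bp upstream with a signal of 38.1, rank 10904 of 11648, and an irreproducible discovery rate (IDR, the expected share of irreproducible peaks among those ranked at least as high) of 0.787. Replicate 1's ranked list had a peak 459 bp upstream with a signal of 20.6, rank 18000 of 18612, and that of replicate 2 had none in the window.

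The strongest peak of the set was at nhl-2, which encodes a TRIM-NHL protein that works with microRNA-loaded Argonautes. It spanned III:4899734-4900088 with its summit 841 bp upstream of the start. Its signal was 1070 in the conservative list, 649.2 in replicate 1 and 406.7 in replicate 2, at ranks 43, 43 and 42. It stood at a percentile of 98.0, 98.0 and 97.7, counted as the share of a list's peaks with that signal or less, and the replicates' summits were 28 bp apart. The next highest member, lin-66, had a conservative signal of 378.7. The nhl-2 summit also lay 582 bp upstream of the divergent gene tag-340 and inside the annotated non-coding RNA gene F26F4.14, 24 bp from its start. In the 201 bp around it, on the strand of nhl-2, the capitals mark the reverse complement of the GC box GGGCGG.
nhl-2: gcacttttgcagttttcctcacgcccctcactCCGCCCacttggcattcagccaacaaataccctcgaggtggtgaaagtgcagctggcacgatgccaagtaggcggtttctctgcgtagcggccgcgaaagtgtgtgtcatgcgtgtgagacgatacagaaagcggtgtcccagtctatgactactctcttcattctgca

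At lin-14, whose nuclear DNA-binding protein specifies first-stage fates, both conservative summits were inside the gene. The first conservative peak, X:11467250-11467625, had its summit 1878 bp into the gene, in an intron. Its signal was 108.0 in the conservative list, 76.9 in replicate 1 and 45.4 in replicate 2, the lowest of the 10 member summits in each. It also lay inside T25C12.7, a non-coding RNA gene on the opposite strand, 92 bp from its start. The second, X:11473427-11473523, had its summit 7882 bp into the gene and 6919 bp upstream of the start of the shorter transcript. Its signal was 226.0 in the conservative list, 141.7 in replicate 1 and 80.7 in replicate 2, about the middle of each list. Summits of the replicates were 92 bp apart at the first peak, the widest gap of the set, and 0 bp apart at the second. The second window is shown because it carries the GC box closest to a summit among the members, starting 7 bp from it, with its reverse complement in capitals.
lin-14: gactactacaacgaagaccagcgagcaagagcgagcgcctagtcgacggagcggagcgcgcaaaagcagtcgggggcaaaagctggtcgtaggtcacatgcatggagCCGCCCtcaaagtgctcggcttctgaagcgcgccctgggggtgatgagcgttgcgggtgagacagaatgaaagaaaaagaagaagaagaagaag
A further lin-14 peak, 6565 bp into the gene, passed the other thresholded list with a signal of 101.8 (IDR 0.00501) but had an IDR of 0.225 in the ranked list behind the conservative one. The first peak went the other way, with an IDR of 0.000613 there and 0.0192 in the list behind the other thresholded set. Replicate 1's own list held the further peak 6539 bp into the gene, with a signal of 97.7, and replicate 2 had only an unthresholded peak 6826 bp in, with a signal of 27.0 and an IDR of 0.339. Only the peak 7882 bp into lin-14 had its summit at nearly the same place in all 4 thresholded lists, 7899 bp in for both replicates.

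At lin-42, the Period relative that paces the moult and larval timing, the peak at II:1246813-1247188 lay in an intron 5358 bp into the gene and 2966 bp upstream of the start shared by transcripts F47F6.1b.1 and F47F6.1c.1. Its signal was 169.3 in the conservative list, 104.0 in replicate 1 and 71.1 in replicate 2, below the median in all 3. The replicates' summits were 48 bp apart, and replicate 1's list held a second, overlapping summit with a signal of 26.1. F47F6.13, a non-coding RNA gene on the opposite strand, contains the summit 33 bp from its start. The window on the strand of lin-42 was the richest in G and C of the members, 59.2%, and the capitals mark TGCGTCTC.
lin-42: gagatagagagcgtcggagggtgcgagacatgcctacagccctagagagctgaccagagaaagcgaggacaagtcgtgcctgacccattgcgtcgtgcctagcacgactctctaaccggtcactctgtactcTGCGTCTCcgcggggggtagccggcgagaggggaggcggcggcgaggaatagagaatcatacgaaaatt
At lin-66, which acts in the pathway to limit lin-28, the peak at IV:13887574-13887768 had its summit 393 bp upstream of the start, the nearest of the upstream summits. The signal was 378.7 in the conservative list, 241.3 in replicate 1 and 135.4 in replicate 2, at ranks 428, 428 and 441, and the replicates' summits were 4 bp apart. No other protein-coding gene starts within 2000 bp of it on a side that would put the summit upstream. Its window, on the strand of lin-66, was the only one with 2 of the 4 sequences. The first run of capitals is the reverse complement of TGCGTCTC and the last run is that of overlapping copies of GAGAGAGA.
lin-66: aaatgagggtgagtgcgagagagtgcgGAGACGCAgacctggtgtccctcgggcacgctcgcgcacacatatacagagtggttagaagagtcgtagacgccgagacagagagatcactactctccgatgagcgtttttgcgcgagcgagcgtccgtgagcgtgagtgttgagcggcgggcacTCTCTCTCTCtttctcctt

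The 4 sequences searched were TGCGTCTC, GAGAGAGA, GCGCGAAA and GGGCGG, each on both strands within 100 bp of a summit. They were taken from earlier results on these data, and each window counts once per sequence. The end of TGCGTCTC can overlap the reverse complement of GAGAGAGA. TGCGTCTC stood at 2 of the 10 member summits and at 16.4% of all 2143. GAGAGAGA stood at 1 of 10 and at 12.6%, GCGCGAAA at 0 of 10 and at 3.55%, and GGGCGG at 3 of 10 and at 10.4%. Any of them stood at 5 of 10 member summits and 35.3% of all, and within 50 bp of the summit at 2 of 10 and 24.2%. Both lin-14 summits, lin-42, lin-66 and nhl-2 held one, and let-7, lin-46, lin-41 and both lin-28 summits held none. The windows of the 3 members with an intron summit, lin-14, lin-28 and lin-42, ran from 47.3% to 59.2% G and C at those summits. Over all 10 member summits the median was 51.7% and the range 39.3% to 59.2%, against a median of 43.8% and quartiles of 38.3% and 49.3% over all summits. The lowest member was the upstream summit of lin-28.

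At lin-28, which encodes the RNA-binding protein that holds second-stage fates and blocks let-7 processing, there were summits on both sides of the start. The upstream peak, I:8411205-8411580, had its summit 589 bp upstream of lin-28 and 1029 bp upstream of the divergent F02E9.7. Its signal was 205.1 in the conservative list, 134.4 in replicate 1 and 68.7 in replicate 2, with summits 54 bp apart between replicates. The other peak, I:8409747-8410122, lay in an intron 869 bp downstream of the outermost start, and that position is 15 bp upstream of the start of the shorter transcript F02E9.2b.1. Its signal was 246.7 in the conservative list, 155.2 in replicate 1 and 85.9 in replicate 2, with the replicates' summits 1 bp apart. In each list the intron peak was higher than the upstream peak. Among the conservative summits inside member genes this was the only one within 100 bp of an annotated transcript start of its gene, whereas the others at lin-14 and lin-42 were 1878 to 6919 bp from the nearest.

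At lin-46, a gephyrin-like gene needed downstream of lin-28, the peak at V:12967943-12968115 had its summit 814 bp upstream. Its signal was 290.1 in the conservative list, 188.6 in replicate 1 and 114.5 in replicate 2, at ranks 634, 621 and 564, and the replicates' summits were 15 bp apart. The divergent gene R186.8 starts only 59 bp from this summit and R186.3 starts 831 bp away. At lin-41, the TRIM-NHL gene that let-7 lowers, the peak at I:9343800-9344175 had its summit 1492 bp upstream of the start. Its signal was 270.3 in the conservative list, 180.4 in replicate 1 and 80.7 in replicate 2, and the replicates' summits were 14 bp apart. Its rank of 682 in the conservative list and 657 in replicate 1 became 891 in replicate 2, the widest change in percentile of the members. The nearest other gene, M04C9.2, ends 736 bp away, and no other protein-coding start has this summit within 2000 bp upstream.

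At hbl-1, a zinc-finger gene of the hunchback family that holds second-stage fates, no thresholded list had a summit in the 7614 bp window. The ranked list behind the conservative one held a single peak in a coding exon, 4129 bp into the gene, with a signal of 39.4, rank 10096 of 11648, and an IDR of 0.430. Replicate 1's ranked list had a peak 4137 bp in with a signal of 32.8 and another in the 3′ UTR with a signal of 24.1. Replicate 2's ranked list had 4 peaks in the window, the highest with a signal of 22.3. The lowest IDR among all of these peaks was 0.430. In the ranked list behind the conservative one, without a threshold, all 10 members had at least 1 peak, beside 43.5% of protein-coding genes. In the series' other ranked list and in that of replicate 2 it was 9 of 10, without lin-4. No background share was computed for either, and replicate 2's ranked list is longer, with 31134 peaks against 11648. In the ranked list behind the conservative one, the peaks of lin-4 and hbl-1 were lower than every conservative peak of another member.

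**Figure D2:**
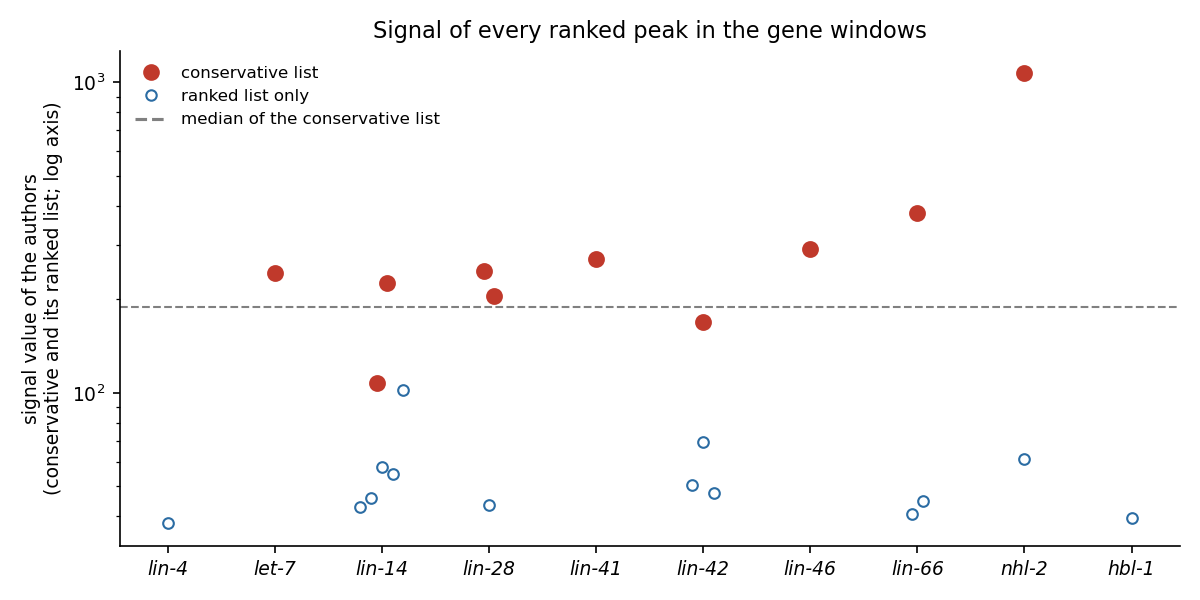
Signal of every peak of the conservative list (filled) and of its ranked list only (open) in the window of each gene, on a log axis. The dashed line is the conservative median of 189; 8 of the 10 filled points lie above it, those of lin-42 and the first lin-14 peak lie below, and lin-4 and hbl-1 have a single open point each, at 38.1 and 39.4.

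The order of members by signal was nearly the same in both replicates at its ends and mixed in its middle. In the conservative list it ran nhl-2, lin-66, lin-46, lin-41, the intron peak of lin-28, let-7, the second lin-14 peak, the upstream peak of lin-28, lin-42 and the first lin-14 peak. The 3 highest and the 2 lowest kept these places in replicate 1. In replicate 2 nhl-2, lin-66 and lin-46 were again highest and the first lin-14 peak lowest, but lin-42 stood above the upstream lin-28 peak. In the middle, lin-41, let-7 and the second lin-14 peak had replicate 2 signals of 80.7, 77.8 and 80.7, which set them nearly level. As a percentile, the median member summit stood at 62.7 in the conservative list, 63.0 in replicate 1 and 49.3 in replicate 2. Above the median were 8 of 10, 8 of 10 and 4 of 10 summits. At or above the 75th percentile were 2, 2 and 1. Replicate 2's list is shorter, with 1756 peaks against 2143 and 2090, so a similar rank there gives a lower percentile. The lin-66 summit, at ranks 428, 428 and 441, stood at percentiles of 80.1, 79.6 and 74.9. Ranks themselves also moved. They fell in replicate 2 at let-7 (805, 739 and 928), lin-41 (682, 657 and 891) and the upstream lin-28 summit (988, 970 and 1084). They rose there at lin-46 (634, 621 and 564), lin-42 (1228, 1282 and 1044) and the first lin-14 peak (1855, 1716 and 1608). Whether member signal was weaker in replicate 2 was not tested.

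**Figure D3:**
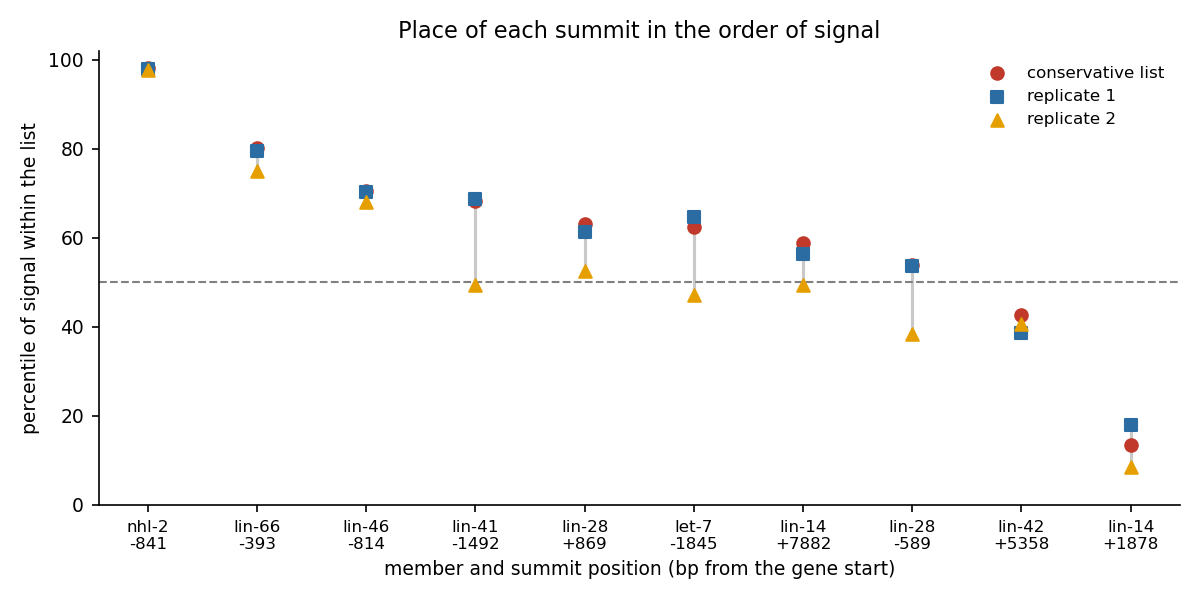
Percentile of signal of each member summit within the conservative list (circles), replicate 1 (squares) and replicate 2 (triangles), with the summit's position in bp from the gene start under each name. nhl-2 stands at 98.0, 98.0 and 97.7. The largest spreads are those of lin-41, let-7 and the upstream lin-28 summit, where replicate 2 is lowest in percentile and also in rank.

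All 10 member summits had an overlapping peak in both replicates' own lists, which was true of 1538 of the 2143 conservative peaks (71.8%). At the members the replicates' summits were a median of 14.5 bp apart, from 0 to 92 bp, with quartiles of 1.75 and 43 bp. Over those 1538 peaks the median was 14 bp, with quartiles of 6 and 29 bp. The percentile of a member summit moved by a median of 9.46 points over the 3 lists, against 9.06 points for the 1538 peaks. By these medians the members varied about as much as those 1538 peaks, though the upper quartile of the members' summit distances was higher. Conservative peaks without a partner in both replicates' lists are left out of this comparison. The percentile range also takes in the conservative list, which draws on both replicates, so it does not measure the difference between replicates alone.

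**Figure D4:**
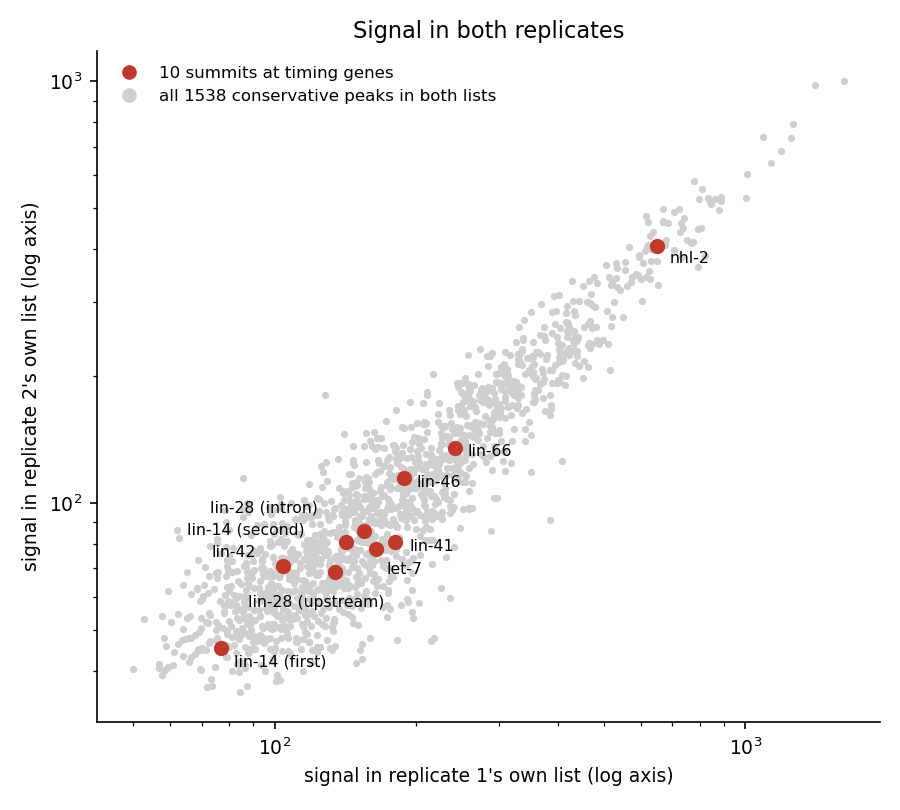
Signal in replicate 1 (horizontal) against replicate 2 (vertical), both on log axes, for the 10 member summits (red) and all 1538 conservative peaks present in both replicates' lists (grey). The members run from the first lin-14 peak at 76.9 and 45.4 to nhl-2 at 649.2 and 406.7 and lie within the grey cloud.

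All 6 upstream summits of members lay beyond the median distance for protein-coding genes, and 4 of the 6 lay within the quartiles. Over the 2423 protein-coding genes with an upstream summit, the nearest one lay a median of 302 bp away, with quartiles of 161 and 879.5 bp. The 6 member distances were 393 bp at lin-66, 589 bp at lin-28, 814 bp at lin-46, 841 bp at nhl-2, 1492 bp at lin-41 and 1845 bp at let-7, with a median of 827.5 bp. A summit nearer than that of lin-66, the nearest member, was found for 57.8% of the genes, and 97.2% had one nearer than let-7. A divergent protein-coding gene also had the summit within 2000 bp upstream at 4 of the 6 members, let-7, lin-28, lin-46 and nhl-2, beside 60.6% of the 2423 genes. At 3 of the 6, let-7, lin-46 and nhl-2, that partner was the nearer of the pair, beside 32.6% of the genes. Thus lin-66 and lin-41 were the members whose upstream summit had no other protein-coding start within 2000 bp on its downstream side. Annotated non-coding RNA genes contained 3 of the 10 member summits, the first of lin-14 and those of lin-42 and nhl-2, all within 100 bp of the RNA's start, beside 5.83% of all conservative summits that lay that near inside one.

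**Figure D5:**
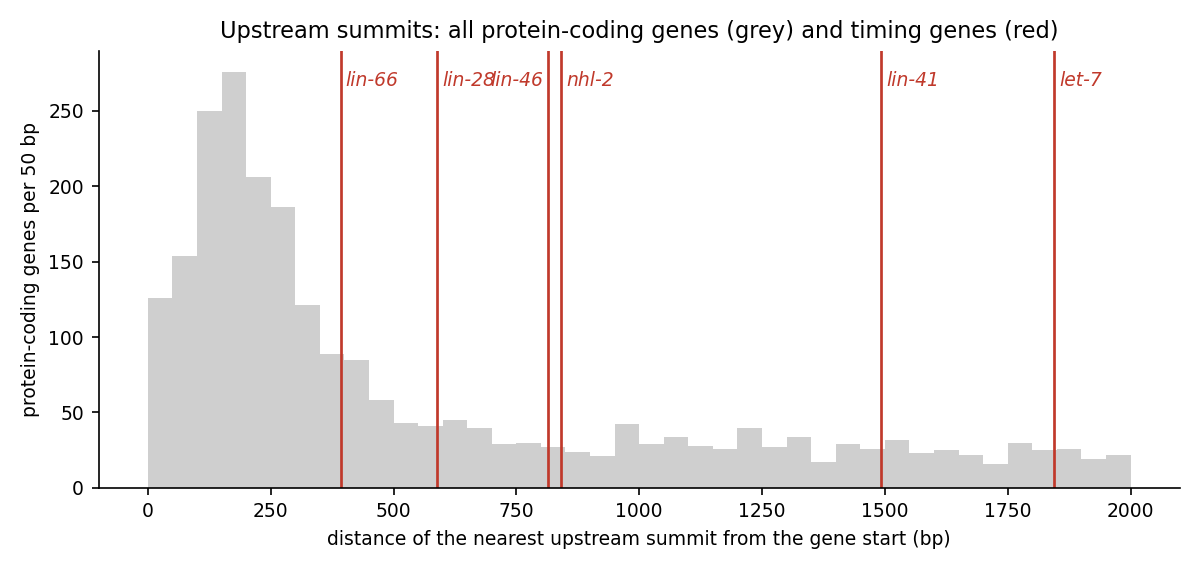
Distance of the nearest upstream ISW-1 summit from the gene start (horizontal, bp) for 2423 protein-coding genes (grey, genes per 50 bp) and for the 6 timing genes with an upstream summit (red lines). The grey distribution has its median at 302 bp, and all 6 red lines, from 393 to 1845 bp, lie to the right of it.

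Other genes of the pathway were examined in the same window. Of 24 further timing genes, chosen by name, 6 had a summit in the conservative list, 7 in the other thresholded list, 7 in replicate 1 and 6 in replicate 2. All 6 were among the 16 protein-coding ones, beside 13.9% of all protein-coding genes, a share not matched for gene length. Of 7 further microRNA genes, including mir-48, mir-84 and mir-241 of the let-7 family, 0 had a summit in any of these lists, beside 11.9% of all microRNA genes, a background at which few of 7 genes would have one. The highest was puf-9, a Pumilio-family RNA-binding gene, with its summit 279 bp upstream and a signal of 1044 in the conservative list, 641.2 in replicate 1 and 400.2 in replicate 2. It ranked 46 in the conservative list, where nhl-2 ranked 43. The co-regulator gene din-1 had 315.8, with its summit 726 bp upstream, and ain-1, whose GW182-type protein acts in microRNA silencing, had 292.9, with its summit 946 bp upstream. In introns lay the highest summits of the nuclear receptor gene daf-12, with a signal of 199.1, and of the kinase gene kin-20, the Doubletime relative, with 158.8. The Makorin-type gene lep-2 had 137.5, with its summit 141 bp upstream. For lin-29, the zinc-finger gene at the end of the pathway, and for the Argonaute genes alg-1 and alg-2, there was no summit in any thresholded list.

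Each member summit was also set beside the 1554 protein-coding genes with a promoter peak in all 3 lists, by the distance between their percentiles in the conservative list, replicate 1 and replicate 2. Apart from the genes that share a peak with a member (C05G5.2, R186.3, R186.8 and tag-340), the most alike gene was puf-9 for nhl-2. Its distance was 0.284 percentile points, and gpap-1 followed closely at 0.357. Such closeness is in the order of signal only and shows no link in function. The most alike gene was Y39G8B.2 for lin-66 (0.655), the exocyst gene sec-3 for lin-46 (1.32), gcn-1 for let-7 (1.75) and the tubulin gene tbb-2 for lin-41 (2.69). For lin-28 it was ceh-39 at the upstream summit (0.645) and cox-6A at the intron summit (1.31). For lin-42 it was the coatomer gene copb-2 (1.06) and for the second lin-14 summit eif-2Bdelta (0.957). The first lin-14 summit had no close neighbour, the nearest being elmd-1 and hecw-1, which share a peak, at 5.85.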

How the data were processed

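ISW-1 ChIP-seq peaks were measured in 2 biological replicates. Per the labels, peaks are on ce11. The aligner, the peak caller and the control it used were not given in the sources used here. The authors deposited 8 lists in narrowPeak layout, 4 ranked by IDR and 4 thresholded, for each replicate and for both together. The signal value deposited with each peak was used only within a list, and the deposited −log10 column gave the global IDR. Every peak of the series' thresholded lists had a global IDR of at most 0.01 in the matching ranked list, and 17 more peaks within that limit in each of the series' ranked lists were not in its thresholded list. Summits were the peak start plus the deposited offset. A further 16 columns of per-sample values were not used. Depth is unknown because lists hold no read counts.

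Gene models came from Ensembl release 115 and sequences from the RefSeq genome, both WBcel235, which is ce11. All 10 members matched, lin-4 and let-7 through their WormBase identifiers in RefSeq. Members, other timing genes and searched sequences were chosen with earlier results of these data known. Named genes were all members, bound timing genes, neighbours of summits and, per summit, up to 3 genes nearest in percentile. Scripts in Python 3.11.15 with pandas 2.3.3 and numpy 2.4.6 were tested on simulated windows. No test was made, since there is 1 condition.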

Additional observations from a re-analysis of the deposited data

How the results depend on the processing

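The 8 members with a summit were the same genes in the other thresholded list, in each replicate's own list and when any overlap of the peak counted. Such agreement is partly built in, since both series lists draw on both replicates and counting any overlap can only add genes. With the upstream limit at 500 bp, 4 members had a summit in the window (lin-14, lin-28, lin-42 and lin-66), and 1 had an upstream summit (lin-66). At 1000 bp these numbers were 6 and 4. The share of protein-coding genes with a summit was 11.3% at 1000 bp and 9.7% at 500 bp, 14.6% with any overlap of the peak, 7.98% with only the peaks of the conservative list above its median signal, and 43.5% without a threshold. With 1 replicate left out it ran from 11.9% to 13.5%. A narrower window or a subset of the same peaks can only lower this share. The median percentile of member summits, over all of each list's member summits, ran from 49.3 to 58.8 with 1 replicate left out. The 49.3 belongs to replicate 2's list. Among the peaks above the conservative median it was 31.2, a drop that follows from ranking the members without the lower peaks. Within 50 bp of the summit, 2 member summits and 24.2% of all summits held one of the 4 sequences, and the median G and C was 54.46%. That median was 48.76% in the other thresholded list, and from 48.01% to 51.49% with 1 replicate left out. Causes of the other shifts were not tested. No paired analysis was possible because there is a single group.

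Limits are few replicates, unknown depth, whole larvae in which tissues are mixed, a tagged transgene, and no control values in the lists. A peak between divergent genes cannot be credited to either, and binding at a gene without a summit was not detectable at these thresholds. Signal values of each replicate's own lists are on other scales than those of the series' lists, where the members' shared peaks carry the same value.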
